A study of Mus musculus with 6 samples.

Results

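Matrix proteases and their inhibitors were followed in the ventricles of mice after repeated atrial pacing. The genes were chosen by a name rule, and this rule and the gene lists below were set with earlier results of these data known. Shares of members or list genes beside those of all genes are therefore descriptions. The rule takes every row of the per-mouse expression table whose symbol begins with Adamts, or with Mmp, Timp or Htra and a number. This gave 55 of the 24239 genes in the table, namely 23 matrix metalloproteinases (MMPs), 19 ADAMTS proteases, 5 ADAMTS-like genes, 4 tissue inhibitors of metalloproteinases (TIMPs) and 4 HtrA serine proteases. Of these, 29 had a mean of at least 1 FPKM over the 6 libraries and were tested. Mmp17, at a mean of 1.03 FPKM, lay just inside this limit, and Adamts6, at 0.809 FPKM, just outside it.

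The pacing group held 3 male C57BL/6 mice aged 8 to 10 weeks. Their atria were paced through a bipolar catheter in the esophagus near them. A daily session opened and closed with 3 min at 120 ms between beats, and in between the interval was shortened gradually to 80 ms, for 45 min. Over the course there were 8 such days, 5 before and 3 after a rest of 2 days. The sham group held 3 mice of the same strain, sex and age, which the labels give as controls without pacing. No mutation or drug is named in either group, and each mouse gave 1 library of ventricular RNA, with an effective depth of 6268000 to 8908000 fragments. Expression is given as FPKM, fragments per kilobase of transcript scaled to the size of the library, so that levels of different genes can be compared per length. A log2 fold change is the paced mean less the sham mean of log2(FPKM + 1), which understates the change of low genes, and it was tested with limma over all 11994 genes with a mean of at least 1 FPKM, and the call rule is a Benjamini-Hochberg adjusted p under 0.05.

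MMPs are zinc proteases that together can cut most proteins of the extracellular matrix, and they are made as inactive precursors. TIMPs bind the active site of these enzymes and block it. ADAMTS proteases are secreted relatives that trim procollagens and cut large proteoglycans, whereas ADAMTS-like proteins lack the protease domain and bind the matrix. HtrA proteins are serine proteases with a different catalytic mechanism. In the heart these genes are known for their part in matrix turnover after injury or overload, and much of their expression lies in fibroblasts and other non-muscle cells.

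After pacing, the stromelysin gene Mmp3 and the serine protease gene Htra4 had means 2.15 and 2.33 times those of the sham group, with every paced mouse above every sham mouse. The inhibitors Timp1, Timp2 and Timp3 had higher means in the paced group too, but their groups overlapped. The levels of the membrane protease Mmp15, the aggrecan-cutting Adamts5 and the proteases Htra1 and Htra2 were close to the same in both groups. No member passed the adjusted threshold (0 of 29), against 0% of all genes tested, and the lowest limma adjusted p over all genes was 0.107. The authors' deposited table, from a different test on the same libraries, called 3 members higher, Htra4, Mmp3 and Timp2, and 0 lower. Over all its rows the authors' deposited table called 1.23% of genes higher and 0.152% lower, and among genes with a mean of at least 1 FPKM it called 2.43% higher.

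At an unadjusted p under 0.05, 7 members lay higher and 1 lower in limma, where 620 of all genes tested lay higher (5.17%) and 442 lower (3.69%). The 3 paced values stood above the 3 sham values in 5 members (17.2%), beside 6.24% of all genes. They stood below in 0 members, beside 6.97% of all genes. Mmp17, among those 5 members, passed the filter through the paced group alone. Its means were 1.34 FPKM in pacing and 0.721 FPKM in sham. The median log2 fold change of the 29 members was 0.20, beside -0.0068 for all genes tested. Of the 29 members 21 had a positive fold change, beside 48.2% of all genes. That split depends on scaling, with 27 members positive and 67.8% of all genes after libraries were rescaled to the same sum, and 20 members and 42.4% of all genes after quantile normalization.

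**Figure D1:**
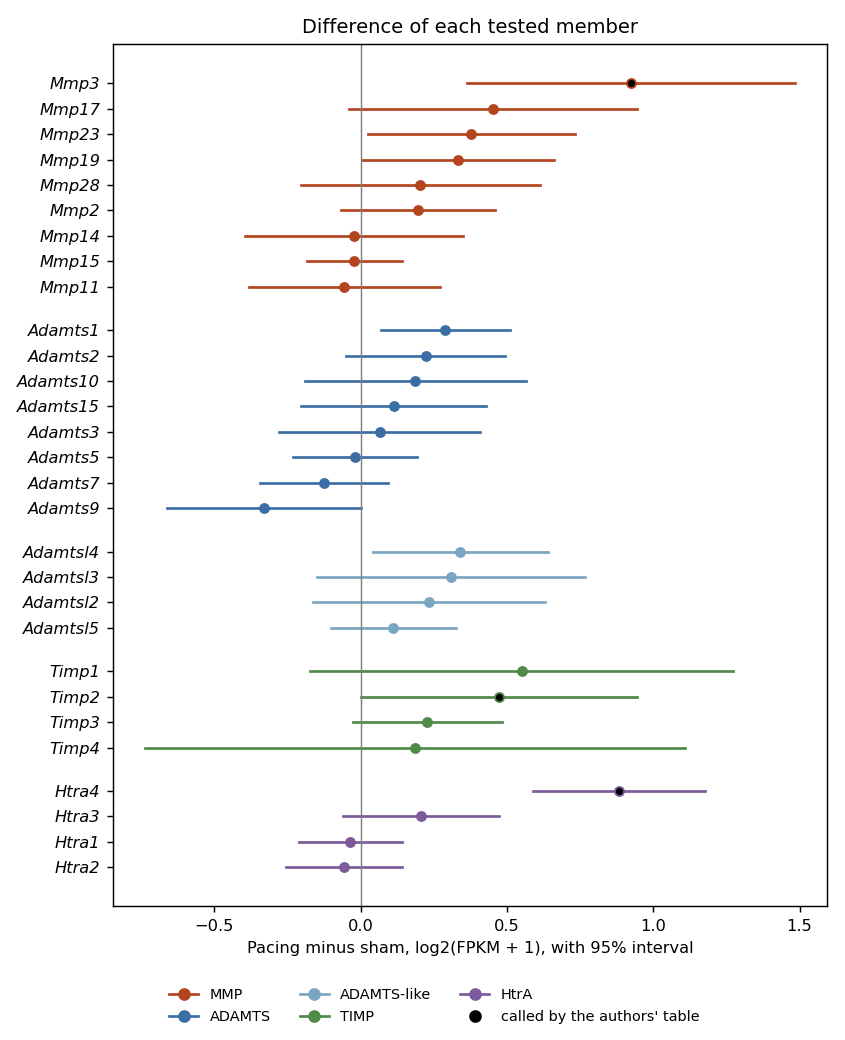
Difference between pacing and sham for the 29 tested members, on the log2(FPKM + 1) scale, grouped by family. Points are limma estimates, lines are 95% intervals, and black centres mark the 3 genes that the authors' deposited table called. Htra4 and Mmp3 lie farthest to the right at 0.88 and 0.92, and Adamts9 lies farthest to the left at -0.33.

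Levels of cell type markers differed between the libraries, and in bulk tissue fewer cells of a type and less RNA per cell cannot be told apart. Cardiomyocyte markers were the highest of all lists in every library, as in ventricular muscle, and summed to 59457 to 61949 FPKM in the paced mice and 62713 to 82343 FPKM in the sham mice, with 0 of 7 higher in mean after pacing. The 10 fibroblast markers all had a higher mean in paced mice, with a summed level of 1177 to 1400 FPKM in pacing and 837 to 1092 FPKM in sham. All 6 adipocyte markers had a higher mean in paced mice too, and they summed to 289 to 584 FPKM in the paced mice, to 247 FPKM in sham 1, and to 24.8 and 12.5 FPKM in sham 2 and sham 3. Mesothelial markers spanned 35.9 to 75.3 FPKM in pacing and 18.8 to 54.8 FPKM in sham, and atrial muscle markers 5714 to 14615 FPKM in pacing and 424 to 12627 FPKM in sham. Lung epithelium markers were high in pacing 2 and pacing 3 alone, at 313 and 1718 FPKM, beside 2.43 FPKM in pacing 1 and up to 4.93 FPKM in sham. Endothelial markers summed to 192 to 225 FPKM in pacing and 217 to 251 FPKM in sham, with 0 of 5 higher in mean after pacing. In 2 of these 5 all paced values lay below all sham values, beside 6.97% of all genes. Smooth muscle and pericyte markers summed to 224 to 252 FPKM in pacing and 211 to 236 FPKM in sham, but their genes differed in direction. Myh11 spanned 13.2 to 21.5 FPKM in pacing and 9.31 to 10.5 FPKM in sham. Cnn1 spanned 5.81 to 10.1 FPKM in pacing and 0.974 to 5.70 FPKM in sham. Acta2 had a higher mean in paced mice with overlap, whereas Rgs5, the largest part of that sum, and Pdgfrb had lower means. Cartilage markers summed to 52.5 to 73.3 FPKM in pacing and 18.2 to 63.5 FPKM in sham. Of these, Cytl1 alone gave 48.1 to 67.7 FPKM in pacing and 17.9 to 61.8 FPKM in sham. The defining cartilage genes Col2a1 and Acan stayed at or under 0.126 FPKM, and Matn3 was at the lowest value of the table throughout. How far these differences contribute to the protease values was not tested.

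**Figure D2:**
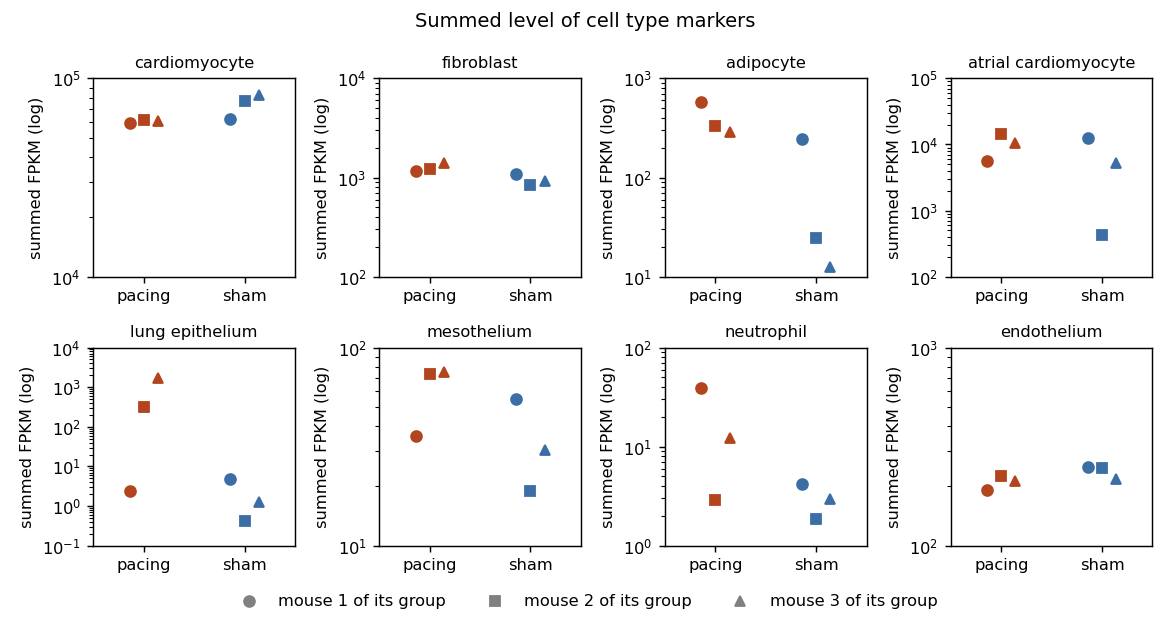
Summed FPKM of marker genes of 8 cell types in each mouse, on log axes. In the adipocyte panel sham 1, at 247 FPKM, lies close to the paced mice and far from sham 2 and sham 3.

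Sham 1 and sham 2 both stood apart in the proteases, in opposite directions. Sham 1 had the highest sham value in 18 of the 29 tested members, and sham 2 had the lowest sham value in 20. Among all 6 mice, pacing 2 was the highest in 14 members and sham 2 the lowest in 15. For that reason many members are given below by mouse, others as mean and SD, and the fits without sham 1 are set beside the results they change. Without sham 1, Htra4, Mmp3 and Mmp23 passed (limma adjusted p = 0.0394, 0.00663 and 0.0408). The remaining sham mice are the ones with little adipocyte signal, and without sham 1 a total of 99 genes passed as higher over all genes. Without sham 2, 0 members passed as higher, and limma adjusted p was 0.568 for Htra4 and 0.690 for Mmp3.

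**Figure D3:**
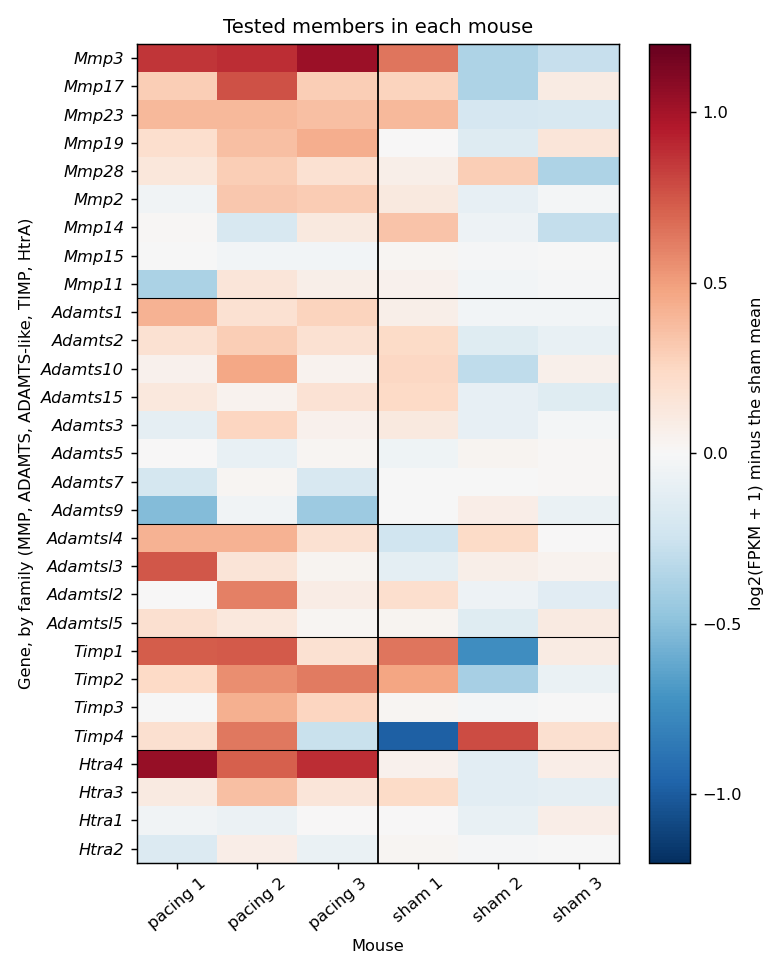
Each tested member in each mouse, as log2(FPKM + 1) minus the mean of the 3 sham mice, with paced mice on the left and sham mice on the right. Mmp3, Timp1 and Timp2 are red in the 3 paced mice and in sham 1, and Htra4 is red in the paced mice but close to the sham mean in sham 1.

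Among the MMPs, Mmp3 encodes stromelysin-1, which cuts proteoglycans and fibronectin and activates other MMP precursors. Its level was 4.62, 4.74 and 5.29 FPKM in pacing 1, 2 and 3, against 3.84, 1.40 and 1.56 FPKM in sham 1, 2 and 3. The paced mice were even and lay above all sham mice, of which sham 1 came within reach of them. The log2 fold change was 0.92 with a standard error (SE) of 0.25 (limma adjusted p = 0.399, and 0.00663 to 0.987 over the alternatives). Without sham 1 the log2 fold change was 1.25, and without sham 2 it was 0.74. The authors' deposited table gave it a log2 fold change of 1.11 at q = 0.00328. About 16 fragments stand behind its lowest value. Mmp3 lies on chromosome 9 from 7445822 to 7455975 (GRCm38, plus strand) inside a cluster of 10 Mmp genes that spans 427 kb, and it was the single gene of that cluster with a mean of at least 1 FPKM. The neighbour Mmp10, stromelysin-2, was at the lowest value of the table, 0.01 FPKM, in all 6 libraries.

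Promoters of that cluster share sequence elements. RefSeq windows (GRCm38) were at hand for 38 of the 55 genes, and the 250 bases before each start were searched on both strands for TGANTCA, the element bound by AP-1 (Fos and Jun) factors, for TATAAA, and for GGGCGG, the GC box bound by Sp1. The AP-1 element was found in 8 of 41 windows, all 8 in genes of the chromosome 9 cluster, against 6.75% of all windows. The TATA element was found in 7 cluster genes, in Adamts1, Adamtsl2 and Mmp21, and in 12.4% of all windows. The GC box was found in 21 of 41 windows, in 0 cluster genes and in 32.7% of all windows. Its 21 windows comprise those of 3 of the 4 TIMP genes and of MMP, ADAMTS, ADAMTS-like and HtrA genes. A cluster gene without a window would count here as one without a match. The Mmp3 window is shown as that of the expressed gene of the cluster, the window of Mmp13, collagenase-3, as a low neighbour with the same elements, and that of Timp1 as an inhibitor gene with a GC box alone. Matches are in capitals, read 5′ to 3′ on the strand of the gene.
Mmp3, chr9:7445572-7445821, plus strand: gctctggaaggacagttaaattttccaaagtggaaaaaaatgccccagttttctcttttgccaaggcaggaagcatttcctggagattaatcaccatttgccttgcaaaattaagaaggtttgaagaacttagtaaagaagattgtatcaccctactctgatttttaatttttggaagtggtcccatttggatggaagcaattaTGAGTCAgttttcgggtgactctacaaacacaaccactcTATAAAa
Mmp13, chr9:7272264-7272513, plus strand: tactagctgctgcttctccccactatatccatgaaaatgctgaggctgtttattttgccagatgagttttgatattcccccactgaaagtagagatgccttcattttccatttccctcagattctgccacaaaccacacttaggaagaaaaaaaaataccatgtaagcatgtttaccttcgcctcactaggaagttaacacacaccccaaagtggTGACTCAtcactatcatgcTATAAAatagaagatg
Timp1, chrX:20869916-20870165, plus strand: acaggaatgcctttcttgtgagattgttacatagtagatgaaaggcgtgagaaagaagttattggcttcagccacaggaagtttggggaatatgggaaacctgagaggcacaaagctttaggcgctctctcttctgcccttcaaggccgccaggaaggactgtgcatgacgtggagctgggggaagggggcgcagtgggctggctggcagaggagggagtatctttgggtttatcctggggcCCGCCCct
In Mmp3 the AP-1 element begins 46 bases before the RefSeq start and the TATA element 7 bases before it, and in Mmp13 they begin 35 and 16 bases before it. No motif overlaps another in these windows, and a match is a description of the letters and not evidence of binding. Although Mmp3 and Mmp13 share both elements, Mmp13 did not separate the groups, at 1.04, 0.514 and 0.984 FPKM in pacing 1, 2 and 3 and 1.23, 0.556 and 0.508 FPKM in sham 1, 2 and 3.

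Mmp23, a membrane-bound MMP, was at 10.4, 10.4 and 10.2 FPKM in pacing 1, 2 and 3 and at 10.4, 6.60 and 6.66 FPKM in sham 1, 2 and 3. Sham 1 thus lay at the level of the paced mice, and the difference rests on sham 2 and sham 3 (a log2 fold change of 0.38, SE 0.15, limma adjusted p = 0.549, and 0.57 with limma adjusted p = 0.0408 without sham 1). Mmp19, a secreted MMP that cuts basement membrane proteins, was at 1.43, 1.71 and 1.85 FPKM in paced mice and at 1.11, 0.898 and 1.34 FPKM in sham mice, with no overlap (log2 fold change 0.33, SE 0.14, limma adjusted p = 0.563). Mmp17, a glycolipid-anchored MMP, was at 1.08, 1.86 and 1.08 FPKM in paced mice against 1.04, 0.305 and 0.816 FPKM in sham mice, where sham 1 again came close to the paced values (log2 fold change 0.45, SE 0.22, limma adjusted p = 0.605). For these low genes counting error is large, with about 23 fragments behind the lowest Mmp19 value and 15 behind the lowest Mmp17 value.

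**Figure D4:**
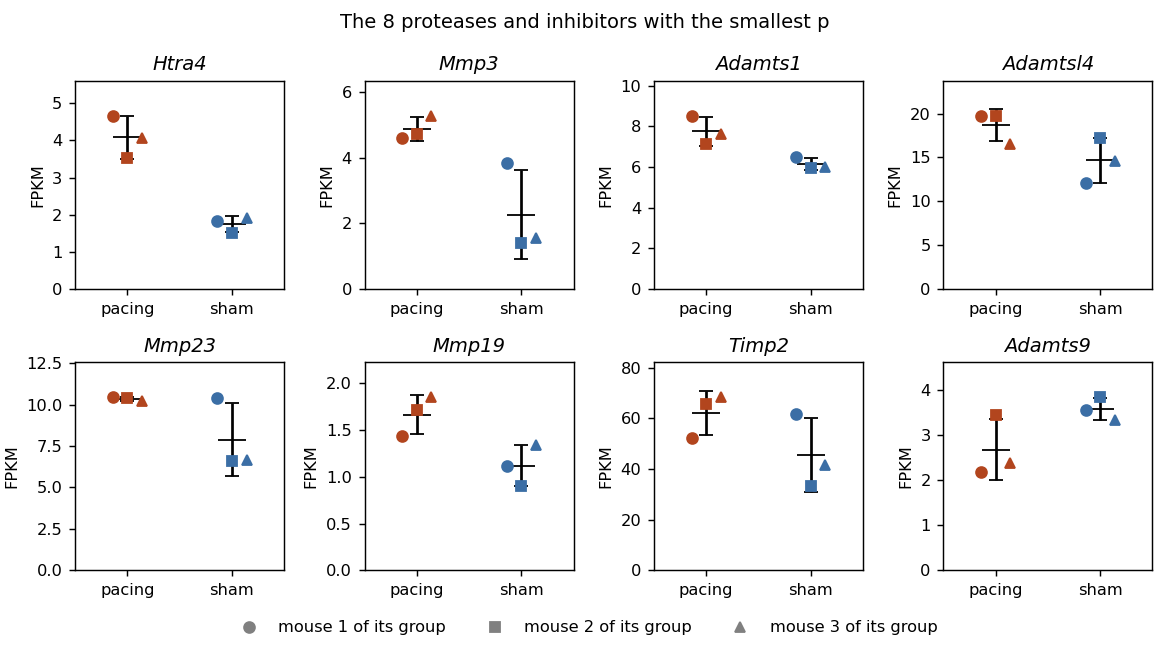
FPKM in each mouse for the 8 members with the smallest limma p, with the mean and SD (n = 3) of each group in black. Htra4, Mmp3, Adamts1 and Mmp19 show no overlap between pacing and sham, and Mmp23 shows sham 1 at the level of the paced mice.

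Mmp2 and Mmp15 made up most of the MMP level per length, together 60.8% to 63.3% of the summed MMP FPKM in paced mice and 60.5% to 69.3% in sham mice. Mmp2, the gelatinase that cuts denatured collagen and collagen IV, was at 28.0, 36.4 and 35.8 FPKM in pacing 1, 2 and 3 and at 31.4, 26.8 and 28.4 FPKM in sham 1, 2 and 3. Its log2 fold change of 0.20 (95% interval -0.07 to 0.46, limma adjusted p = 0.679) was carried by pacing 2 and pacing 3, and without them it was -0.042. Mmp15, a membrane-type MMP, was the steadiest member of the family, at 23.8 ± 0.258 FPKM in pacing and 24.2 ± 0.339 FPKM in sham (SD, n = 3 each), and the 95% interval of its difference ran from -0.18 to 0.14. Mmp14, the membrane-type MMP that activates the Mmp2 precursor, was at 7.07, 6.00 and 7.67 FPKM in paced mice and at 9.17, 6.67 and 5.58 FPKM in sham mice. The sham values of Mmp14 spanned the paced ones (log2 fold change -0.02, 95% interval -0.39 to 0.35). Mmp11, stromelysin-3, averaged 4.94 ± 1.10 FPKM in pacing and 5.10 ± 0.187 FPKM in sham. Mmp28, epilysin, averaged 2.15 ± 0.189 FPKM in pacing and 1.78 ± 0.629 FPKM in sham (SD, n = 3 each).

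The 4 TIMPs were higher per length than the MMPs in every mouse. Their summed level was 208, 274 and 231 FPKM in pacing 1, 2 and 3 and 195, 203 and 194 FPKM in sham 1, 2 and 3, so that the paced mice lay above the sham mice. That separation depends on Timp4, at 41.6 FPKM in pacing 1 and 17.9 FPKM in sham 1. Without Timp4 the summed TIMP levels of the groups overlapped, with sham 1 above pacing 1. The summed MMP level was 85.6, 94.8 and 95.8 FPKM in the paced mice and 92.5, 75.7 and 75.9 FPKM in the sham mice, with sham 1 among the paced values. TIMP level over MMP level was 2.57 ± 0.272 in pacing and 2.45 ± 0.299 in sham (SD, n = 3 each), a difference smaller than the spread between mice. Without Timp4, the member that varied most between mice, the ratio was 2.11 ± 0.176 in pacing and 1.93 ± 0.0832 in sham (SD, n = 3 each). Its range was 1.94 to 2.29 in pacing and 1.85 to 2.01 in sham. That difference of means was barely larger than the paced SD, and the groups overlapped. These sums are a description and were not tested.

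**Figure D5:**
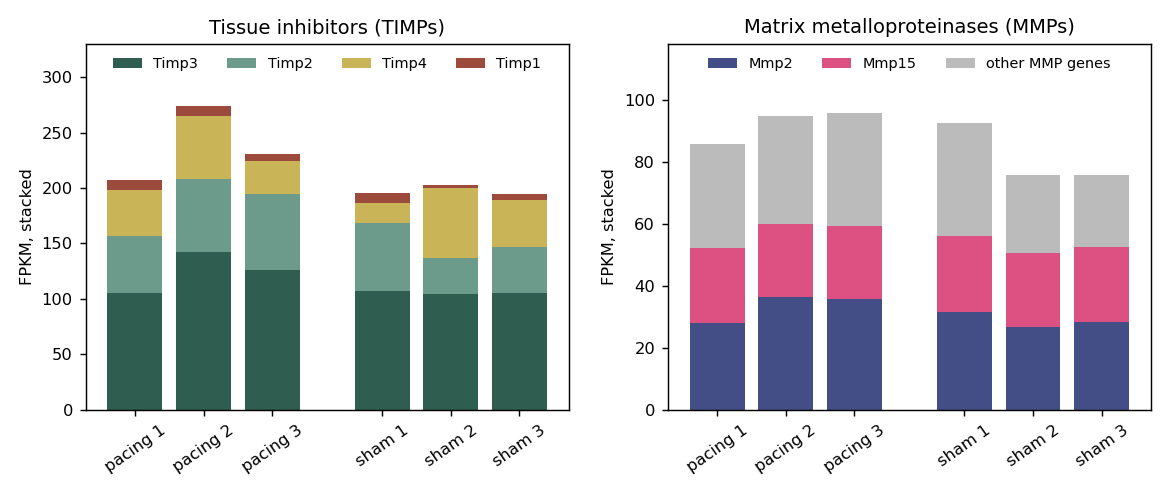
Stacked FPKM of the 4 TIMP genes and of the MMP genes in each mouse, paced mice on the left and sham mice on the right. Timp3 is the largest share of the TIMP level in every mouse, and the share of Timp4 is smallest in sham 1.

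Timp3, which binds to the matrix and also blocks ADAMTS proteases, was the most abundant member of all 55. It was at 105, 143 and 126 FPKM in pacing 1, 2 and 3 and at 107, 104 and 105 FPKM in sham 1, 2 and 3. The sham mice were nearly identical, and pacing 2 and pacing 3 lay above them while pacing 1 did not (log2 fold change 0.23, SE 0.11, limma adjusted p = 0.619). Without pacing 2 and pacing 3, the mice with lung transcripts, the log2 fold change of Timp3 was -0.0083. Timp2, which blocks MMPs and also takes part in the activation of the Mmp2 precursor, was at 52.1, 65.4 and 68.3 FPKM in paced mice and at 61.8, 33.2 and 41.7 FPKM in sham mice. Sham 1 lay within the paced range (log2 fold change 0.47, SE 0.21, limma adjusted p = 0.563, and 0.0747 to 1.0 over the alternatives), whereas the authors' deposited table called Timp2 higher with a log2 fold change of 0.44 at q = 0.0235. Timp2 lies on chromosome 11 from 118301069 to 118355740 (GRCm38, minus strand). Another coding gene, Cep295nl, lies in its span on the same strand.

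Timp1, the inducible inhibitor, was at 9.09, 9.14 and 5.91 FPKM in pacing 1, 2 and 3 and at 8.51, 2.64 and 5.51 FPKM in sham 1, 2 and 3 (a log2 fold change of 0.55, SE 0.32, limma adjusted p = 0.669). Sham 1 again lay among the paced mice. Timp4, the inhibitor that is most typical of heart, was the member that varied most between mice of the same group, at 41.6, 56.6 and 30.0 FPKM in paced mice and 17.9, 63.0 and 41.7 FPKM in sham mice. Sham 1, high for Timp1 and Timp2, was the lowest of the 6 for Timp4, and Timp4 made up 9.18% of the TIMP level in sham 1 and 31.0% in sham 2. Adipocyte and atrial marker sums were both higher in sham 1 than in sham 2, and their part in this was not tested. The groups could not be told apart for Timp4 (log2 fold change 0.19, 95% interval -0.74 to 1.11, limma adjusted p = 0.927).

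Timp1, Timp3 and Timp4 share a position that the name rule did not use. Each lies within a synapsin gene on the opposite strand, Timp1 in Syn1 on chromosome X, Timp3 in Syn3 on chromosome 10 and Timp4 in Syn2 on chromosome 6, per GENCODE M21 (GRCm38). The sources used here do not say whether counting used the strand. The synapsin genes themselves were low, Syn1 at no more than 0.261 FPKM, Syn3 at no more than 0.423 FPKM and Syn2 between 1.15 and 2.19 FPKM over the 6 mice. A total of 10 of the 29 tested members, among them Mmp11, Mmp19, Mmp28, Adamts7, Adamts9, Htra1 and Htra2, have a coding gene on the opposite strand in their span, and reads from such pairs could not be separated here.

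Among the ADAMTS proteases, Adamts1, which cuts the proteoglycans aggrecan and versican, was the one member without overlap between the groups. It was at 8.52, 7.11 and 7.61 FPKM in pacing 1, 2 and 3 and at 6.49, 5.96 and 5.98 FPKM in sham 1, 2 and 3 (a log2 fold change of 0.29, SE 0.10, limma adjusted p = 0.484). Adamts9, another versican-cutting protease, differed in the other direction, at 2.19, 3.45 and 2.39 FPKM in paced mice and 3.56, 3.84 and 3.34 FPKM in sham mice. Pacing 2 lay within the sham range of Adamts9 (log2 fold change -0.33, SE 0.14, limma adjusted p = 0.563). Adamts5, the aggrecan-cutting protease, hardly varied, at 4.67 ± 0.236 FPKM in pacing and 4.75 ± 0.177 FPKM in sham (SD, n = 3 each), with a 95% interval of the difference from -0.23 to 0.19. Adamts7, which cuts cartilage oligomeric matrix protein, averaged 6.77 ± 0.716 FPKM in pacing and 7.46 ± 0.0534 FPKM in sham, and its groups overlapped.

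The procollagen N-proteinases, which remove the amino-terminal propeptides of collagens, are Adamts2 and Adamts3 among the tested members. Adamts2 was at 5.98, 6.54 and 5.99 FPKM in pacing 1, 2 and 3 and at 6.20, 4.56 and 4.79 FPKM in sham 1, 2 and 3 (a log2 fold change of 0.22, SE 0.12, limma adjusted p = 0.649). As for Mmp23 and Timp2, sham 1 lay within the paced range and the other sham mice below it. Adamts3 averaged 1.35 ± 0.303 FPKM in pacing and 1.24 ± 0.164 FPKM in sham. Adamts10, which binds fibrillin microfibrils, averaged 13.2 ± 2.47 FPKM in pacing and 11.5 ± 2.36 FPKM in sham (SD, n = 3 each). Adamts15, a versican-cutting protease, was at 2.40, 2.22 and 2.51 FPKM in pacing 1, 2 and 3 and at 2.69, 1.91 and 1.83 FPKM in sham 1, 2 and 3, with overlap.

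All 4 tested ADAMTS-like genes had a positive fold change, beside 48.2% of all genes, and in 0 of them did all paced values lie above all sham values, beside 6.24% of all genes. Adamtsl4, which binds fibrillin microfibrils, was at 19.7, 19.8 and 16.6 FPKM in pacing 1, 2 and 3 and at 12.1, 17.2 and 14.6 FPKM in sham 1, 2 and 3 (a log2 fold change of 0.34, SE 0.13, limma adjusted p = 0.529). Here sham 1 was the lowest sham mouse, unlike in most MMP and TIMP genes. Adamtsl3 was high in pacing 1 alone, at 2.48 FPKM, beside 1.30 and 1.12 FPKM in pacing 2 and 3 and 0.918 to 1.17 FPKM in sham. Adamtsl2, a fibrillin-binding regulator of transforming growth factor beta availability, was high in pacing 2 alone, at 5.87 FPKM, beside 3.54 and 3.83 FPKM in pacing 1 and 3 and 3.11 to 4.21 FPKM in sham. Adamtsl5 averaged 24.9 ± 1.52 FPKM in pacing and 23.0 ± 2.09 FPKM in sham (SD, n = 3 each). In the deposited table the row of Adamtsl5 spans 672333 bases, against 9303 bases of the gene in GENCODE. Among others, the rows of Timp1, Timp3, Timp4, Htra2, Mmp7, Mmp20 and Mmp19 (13461 against 9915 bases) also span more than the gene. Whether reads of the wider locus entered these values was not tested.

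Htra4 had the smallest p of all members and ranked number 5 among all 11994 genes tested. It was at 4.67, 3.52 and 4.07 FPKM in pacing 1, 2 and 3 and at 1.84, 1.51 and 1.90 FPKM in sham 1, 2 and 3, a ratio of means of 2.33. Every paced mouse lay well above every sham mouse, and sham 1 did not stand apart for Htra4 as it did for Mmp3. The log2 fold change was 0.88 (SE 0.13, 95% interval 0.59 to 1.18, limma adjusted p = 0.222, and 0.0394 to 0.573 over the alternatives). Without sham 1 that of Htra4 was 0.91, and without sham 2 it was 0.82. In the authors' deposited table its log2 fold change was 1.22 at q = 0.00328. About 24 to 76 fragments stand behind its values. It lies on chromosome 8 from 25024929 to 25038962 (GRCm38, minus strand), with no other coding gene in its span.

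The remaining HtrA genes had smaller differences between the group means. Htra3, a secreted relative, was at 52.1, 62.1 and 53.2 FPKM in pacing 1, 2 and 3 and at 56.5, 44.1 and 44.7 FPKM in sham 1, 2 and 3, with sham 1 among the paced mice (log2 fold change 0.21, SE 0.12, limma adjusted p = 0.664). Htra1, a secreted protease that cuts matrix proteins, averaged 51.7 ± 1.28 FPKM in pacing and 53.0 ± 3.15 FPKM in sham, with a 95% interval of the difference from -0.21 to 0.14. Htra2, a protease of the mitochondrial intermembrane space, averaged 18.6 ± 1.68 FPKM in pacing and 19.4 ± 0.266 FPKM in sham, with a 95% interval from -0.25 to 0.14 (SD, n = 3 each).

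The other 26 members had a mean under 1 FPKM and were not tested. They comprise 14 MMPs, 11 ADAMTS proteases and 1 ADAMTS-like gene, and their highest value in any mouse was 1.23 FPKM. Mmp1a, Mmp1b, Mmp7, Mmp10, Mmp20 and Mmp21 were at the lowest value of the table in all 6 libraries. Of the rest, a library reached 1 FPKM in 4 genes, namely Mmp13, Mmp9, Adamts6 and Adamts8. Mmp9, the gelatinase of neutrophils and macrophages, was at 0.740, 0.214 and 1.01 FPKM in pacing 1, 2 and 3 and at 0.894, 0.674 and 0.159 FPKM in sham 1, 2 and 3, with no separation. The neutrophil collagenase Mmp8 was at no more than 0.216 FPKM, in pacing 1, from about 4 fragments. Neutrophil markers also had their highest sum in pacing 1, at 38.9 FPKM, beside 1.84 to 12.2 FPKM in the other mice. S100a8 and S100a9 gave 13.8 and 23.6 FPKM of that sum. Among the neutrophil markers Mpo and Elane were at the lowest value of the table in every library. Adamts8 was at 0.285, 1.19 and 0.874 FPKM in paced mice and 0.924, 0.256 and 0.368 FPKM in sham mice, and Adamts6 at 0.770, 1.14 and 0.747 FPKM in paced mice and 1.02, 0.599 and 0.583 FPKM in sham mice, both with overlap. Adamts13, which cuts von Willebrand factor, averaged 0.682 ± 0.102 FPKM in pacing and 0.710 ± 0.160 FPKM in sham (SD, n = 3 each).

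Genes that regulate or assist matrix proteolysis, a list of 32, were set beside the members. Among the 28 that were tested the fold change was positive for 18, 0 passed the adjusted threshold, and at an unadjusted p under 0.05 there were 8 higher and 0 lower, against 5.17% and 3.69% of all genes, with a median log2 fold change of 0.06. The positive share over all genes was 48.2%. The authors' deposited table called 4 of them higher, beside 2.43% of all genes with a mean of at least 1 FPKM. Lrp1, the endocytic receptor that clears proteases and their inhibitors, averaged 12.9 ± 0.381 FPKM in pacing and 9.06 ± 1.62 FPKM in sham, without overlap (limma adjusted p = 0.390 for a log2 fold change of 0.48 with SE 0.12). Thbs1, thrombospondin-1, averaged 3.87 ± 2.35 FPKM in pacing and 1.32 ± 0.410 FPKM in sham (log2 fold change 0.98, SE 0.29). Spock2, a matrix proteoglycan of the testican family, averaged 6.51 ± 1.83 FPKM in pacing and 3.55 ± 1.19 FPKM in sham. Pcolce2, an enhancer of procollagen C-proteinase, averaged 23.0 ± 3.28 FPKM in pacing and 17.6 ± 1.74 FPKM in sham, and the lysosomal protease gene Ctss 30.0 ± 8.01 FPKM in pacing and 20.5 ± 4.37 FPKM in sham (SD, n = 3 each). Summed macrophage markers, cells in which Ctss is high, were 370 to 494 FPKM in pacing and 248 to 392 FPKM in sham, and their part in that difference was not tested.

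Among 22 genes of matrix proteins that these enzymes cut or process, 20 were tested, 11 had a positive fold change and 0 passed the adjusted threshold. The 11 of 20 are 55% of those tested, beside 48.2% of all genes. At an unadjusted p under 0.05 there were 5 higher and 2 lower, beside 5.17% and 3.69% of all genes, and the median log2 fold change was 0.26. The groups overlapped for each of the genes named here except Lum, and Lum and Col1a1 are also in the fibroblast marker list. The fibrillar collagen gene Col1a1 averaged 26.8 ± 2.25 FPKM in pacing and 18.3 ± 8.20 FPKM in sham, and Col1a2 44.8 ± 4.36 FPKM in pacing and 31.4 ± 10.2 FPKM in sham. For Col1a1, sham 1 lay within the paced range at 27.8 FPKM, and sham 2 and sham 3 were at 13.7 and 13.5 FPKM. Lum, the proteoglycan lumican, averaged 82.6 ± 12.1 FPKM in pacing and 60.0 ± 10.3 FPKM in sham, and fibronectin, Fn1, 12.5 ± 1.72 FPKM in pacing and 8.39 ± 3.65 FPKM in sham. Comp, cartilage oligomeric matrix protein, averaged 10.6 ± 3.87 FPKM in pacing and 5.85 ± 5.17 FPKM in sham. The basement membrane collagen gene Col4a1 averaged 43.8 ± 4.57 FPKM in pacing and 61.4 ± 12.6 FPKM in sham (log2 fold change -0.46, SE 0.15, limma adjusted p = 0.484), and Col4a2 31.4 ± 2.89 FPKM in pacing and 42.0 ± 8.65 FPKM in sham (SD, n = 3 each). The authors' deposited table called Lum, Col1a1, Col1a2, Fn1 and Comp higher, and Col4a1 and Col4a2 lower, beside 2.43% called higher among genes with a mean of at least 1 FPKM and 0.152% called lower over all rows.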

How the data were processed

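Ventricular RNA of 3 paced and 3 sham mice was measured by stranded polyA sequencing, with each mouse as 1 library. Reads were aligned to mm10 and quantified with TopHat2 2.1.0, Bowtie2 2.2.6, Cufflinks and Cuffdiff, per the submitters' processing notes, which also name FastQC 1.0.0. The sources used here do not give the annotation, the filters or the strand setting. FPKM values per mouse were deposited, with 0.01 written where no fragment is reported, and, per the file headers, a comparison table with group FPKM, a log2 ratio with the paced group on top, a q-value and a call. The row of Cacna2d1 holds a failed estimate and was left out.

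The fit was made with limma 3.58.1 (R 4.3.3) to log2(FPKM + 1) of the 11994 genes whose mean FPKM reached 1, with a term for group and a trended eBayes prior, and its two-sided p-values were adjusted by Benjamini-Hochberg over all of them. It was tested on simulated data, and count models were not applied to these FPKM values. The steps of the lowest values of 686 genes with 1 exon gave effective depths of 6268000 to 8908000 fragments, with 100% of values under 10 fragments whole within 0.05, and fragments behind a gene were approximated from its longest GENCODE M21 transcript. At most 0.0135% of values above the floor were identical between any 2 libraries.

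The members and gene lists were chosen with earlier results of these data known. Every tested member is named, members under the filter are named where a library reaches 1 FPKM, where every library is at 0.01 FPKM, or as an example (Mmp8 and Adamts13), the last 2 kinds chosen after their values were seen, and each gene list is given by the 4 genes with the smallest p and those called in the authors' deposited table. Marker lists are given as sums. Alternatives comprised a pseudocount of 0.1 or 0.5, testing without a filter or with one at 5 FPKM, 3 scalings, no trend, a replicate block, each mouse left out, pacing 2 and pacing 3 left out, and a stricter q of 0.01 for the authors' deposited table.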

Additional observations from a re-analysis of the deposited data

How the results depend on the processing

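Over the alternatives, 428 of 451 member fold changes kept their direction and their side of the threshold, 3 passed (Htra4, Mmp3 and Mmp23, each without sham 1) and 20 changed sign, of which 0 passed. The median member fold change lay between 0.12 and 0.27 over all alternatives. At an adjusted p under 0.05, over all genes the count of higher genes was 0 to 99 and of lower genes 0 to 1 when each mouse was left out, and the count of higher members was 0 to 3. At an unadjusted p the higher members numbered 3 to 9 and the lower ones 0 to 1 when each mouse was left out. Over all genes the higher ones then numbered 412 to 994 and the lower ones 295 to 733. The highest of each of these counts of higher genes or members came without sham 1, and without pacing 1 or pacing 3 the adjusted count over all genes was 7 or 1 higher. Same-numbered mice of the groups deviated from their group means with correlations of -0.13, -0.02 and -0.02. With 3 mice per group these values cannot settle whether the numbers pair mice. With the replicate block 7 genes passed as higher over all genes and 0 of them were members, so that the block changed no call of a member. Higher members at an unadjusted p numbered 5 with the replicate block, beside 592 of all 11994 genes. With a filter at 5 FPKM, where 18 members were left to test, they numbered 4, beside 381 of 8181 genes. Lower members numbered 0 with no filter, with a filter at 5 FPKM and after rescaling to the same sum. Over all genes the lower ones numbered 524, 348 and 148 in these settings. After rescaling to the same sum, 8 members had all paced values above all sham values, against 5. The share of all genes with such a separation was not counted after this rescaling. At an unadjusted limma p under 0.05, 969 of 12003 genes then lay higher and 148 lower, against 620 and 442 without it. At a q under 0.01 the authors' deposited table kept 2 member calls.

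Rescaling to the same sum turned Mmp11 (0.0081), Mmp14 (0.044), Mmp15 (0.052), Htra1 (0.041), Htra2 (0.018) and Adamts5 (0.044) positive, and quantile normalization turned Adamts3 (-0.025) negative. Without pacing 2 and pacing 3, Timp3 (-0.0083), Mmp2 (-0.042) and Adamts3 (-0.11) turned negative and Mmp14 (0.012) and Adamts5 (0.0078) positive. With each mouse left out, the log2 fold change ran from -0.16 to 0.15 for Mmp14, from -0.30 to 0.58 for Timp4, from -0.079 to 0.0050 for Htra1, from -0.16 to 0.11 for Mmp11, from -0.046 to 0.014 for Adamts5 and from -0.030 to 0.15 for Adamts3. Without pacing 2 and pacing 3 the lone paced mouse is assumed to vary like the sham mice. The cause was not tested. Among tested members, depth limits Mmp3, Mmp17, Mmp19, Mmp28, Timp1 and Htra4 most, with 15 to 24 fragments behind the lowest value of each.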
